A study of Homo sapiens with 8 samples.

Results

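The 10 genes described here are some of those that encode amino acid transporters of the plasma membrane, leaving aside the light chain of the cystine antiporter. They were picked by gene symbol from a table of 35394 genes, and all 10 were present and passed the filter on low counts that left 15006 genes for testing. The cells were HCT116, an established human colorectal cancer line that the labels give as epithelial, from colon and with a RAS mutation, a background that both groups share. The treatment was PZH, short for Pien Tze Huang, a formula of traditional Chinese medicine, given for 24 h, and control cells received DMSO; each group has 4 libraries. No dose is stated in the labels, and no time is stated for the DMSO libraries. Since the labels do not say what a replicate is, p-values measure only the spread between these libraries, which may be technical.

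Cells cannot make essential amino acids and take them, with glutamine, serine, glycine and others, through carrier proteins with overlapping substrates. Some carriers work alone and use the sodium gradient, some exchange one amino acid for another, and some need a partner: the glycoprotein encoded by SLC3A2 (4F2hc, CD98) brings light chains such as LAT1 (SLC7A5) to the cell surface. Leucine and other amino acids that enter this way are sensed by the kinase complex mTORC1, and a shortage of amino acids, like other stresses that phosphorylate eIF2alpha, raises translation of the transcription factor ATF4, whose known target genes include several transporters.

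Depth was similar across libraries, at 19288836 to 19917571 counts in DMSO and 18144117 to 18868057 in PZH. Of 7 epithelial markers, EPCAM stood at 277 ± 10.1 and 299 ± 10.2 CPM (counts relative to library size, scaled with TMM factors; mean ± SD, n = 4) and the intestinal markers VIL1 (0 to 4 counts) and CDX1 (0 counts) were at or near 0. The epithelial markers moved both ways: the keratin KRT8 fell 1.91-fold from 1880 to 985 CPM, the cadherin CDH1 rose 3.12-fold from 79.3 to 247 CPM, EPCAM passed as higher by 1.08-fold, and KRT18 and KRT19 did not pass. What part this has in other results was not tested. The 12 markers of immune, endothelial, fibroblast, blood and liver cells summed to 12.3 to 16.4 CPM in DMSO and 18.2 to 22.05 CPM in PZH. Without the collagen gene COL1A1 those sums were 1.07 to 2.51 and 1.29 to 2.04 CPM. In the other fibroblast markers, COL1A2 had 0 counts in every library and DCN at most 1. COL1A1 itself was called higher in PZH, and the part of such cells in any result was not tested.

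Most of these 10 transporter genes, which were chosen with earlier results of these data known, had more transcripts in PZH-treated cells. This does not hold for surface carriers in general, since of 11 others tested, described below, 3 rose and 8 fell. Of the 10, 8 rose, among all tested genes where 39.3% were called higher, and 1 fell, where 40.9% were called lower (edgeR's quasi-likelihood test, Benjamini-Hochberg adjusted p under 0.05). So 9 of the 10 were called in either direction, in a table where 80.3% of tested genes were. Every PZH library lay above every DMSO library for 8 of the 10, as for 36.6% of tested genes, and below for 1, as for 38.4%. Beyond 2-fold, 6 of the 10 rose, against 15.8% of all tested genes, and 0 fell, against 18.9%. In rising order the increases ran from 1.45-fold for SLC38A2 to 7.26-fold for the glycine transporter SLC6A9, and the gene that fell, SLC7A6, did so by 1.48-fold. The median log2 fold change was 1.19 over the 10 genes and -0.02 over all tested genes. In bulk RNA of this kind fewer cells of a type and less RNA per cell cannot be told apart.

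These directions are relative to the scaling, because most tested genes were called in one direction or the other. With no scaling factors, the log2 fold change at the median of all genes shifted by -0.26. The same number of transporter genes, 8, was then called higher, against 29.8% of all tested genes, and 5 of them by at least 2-fold, while 2 were called lower, against 51.1%. The share of all counts in a library that fell on the 10 genes also uses no scaling factor. Like the fit without scaling factors, it depends on all other genes of a library, so it is no separate check. Genes with many counts weigh most in it, such as SLC38A2 with 20428 to 21110 per DMSO library. The share was 0.265%, 0.263%, 0.261% and 0.269% in DMSO replicates 1 to 4 and 0.496%, 0.483%, 0.491% and 0.498% in PZH replicates 1 to 4. Each PZH library lay above each DMSO library.

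**Figure D1:**
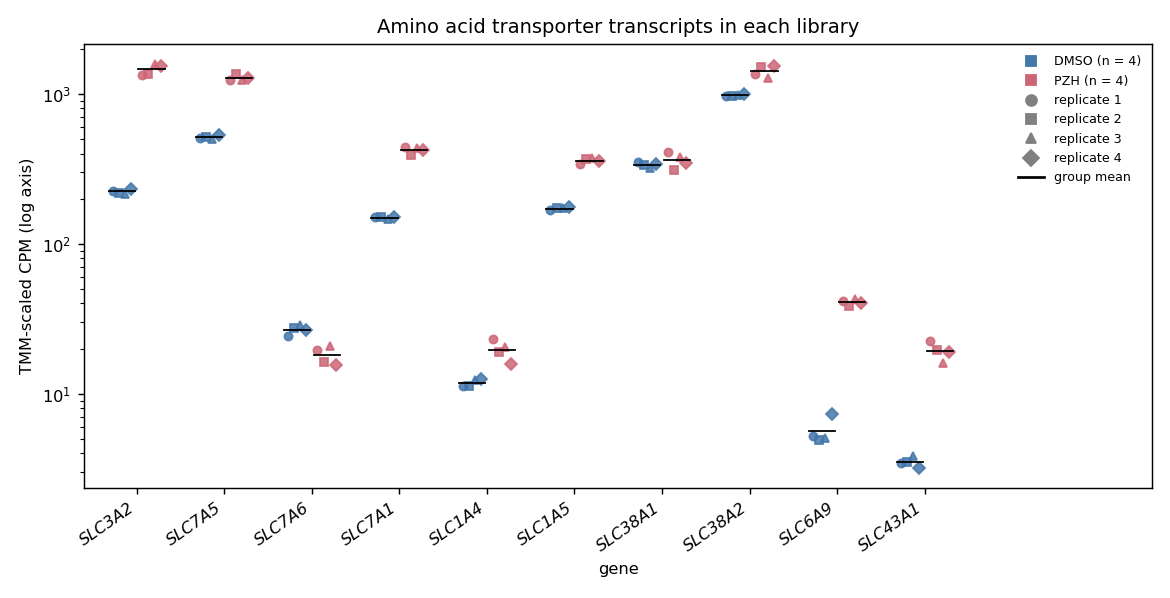
TMM-scaled CPM of each of the 10 transporter genes in each of the 8 libraries, on a log axis; symbols mark the replicate number and bars the group means. PZH libraries lie above DMSO libraries for 8 genes and below them for SLC7A6, while those of SLC38A1 overlap.

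**Figure D2:**
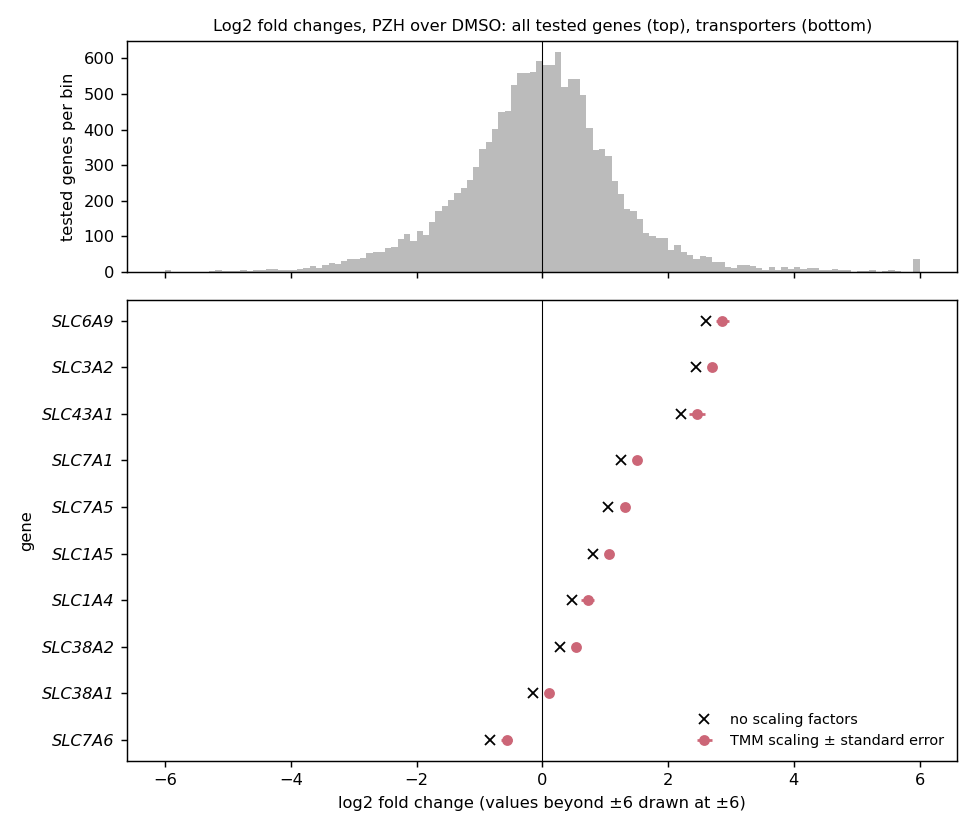
Top: log2 fold changes of all 15006 tested genes, PZH over DMSO. Bottom: the same for the 10 transporter genes with TMM scaling (points, bars are standard errors) and without scaling factors (crosses), where SLC38A1 lies on the other side of 0.

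The letters near the start sites of these genes were searched because members rose together and several are known ATF4 targets. RefSeq promoter windows (GRCh38.p14, 250 bases before to 50 bases after a start) were found for all 10 genes, 17 windows in all. The C/EBP-ATF response element, searched as TGATGNAA on both strands, was in 5 of the 17 windows, which belong to 5 genes, and in 3.62% of all 35116 windows of the table. Per gene, it was in at least 1 window of 4.46% of the 27305 genes of the table. The matches are shown in 30-base stretches along the strand of the gene, with the matched letters in capitals.
SLC3A2: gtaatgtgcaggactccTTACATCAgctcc
SLC7A1: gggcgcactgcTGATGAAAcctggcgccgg
SLC1A4: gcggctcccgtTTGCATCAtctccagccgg
SLC1A5: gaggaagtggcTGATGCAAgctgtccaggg
SLC38A1: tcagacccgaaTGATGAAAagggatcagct
In SLC3A2 (chr11:62881719-62881748, plus strand) and SLC7A1 (chr13:29595663-29595692, minus strand) the match begins 38 and 8 bases after a start. In SLC1A4 (chr2:64989381-64989410, plus strand), SLC1A5 (chr19:46784893-46784922, minus strand) and SLC38A1 (chr12:46266502-46266531, minus strand) it begins before a start. The matches in SLC3A2 and SLC1A4 are the reverse complement of the searched letters. Of these 5 genes, 4 rose in PZH, and SLC38A1 did not pass the test. Among the 5 genes whose windows do not hold these letters, SLC7A5, SLC38A2, SLC6A9 and SLC43A1 rose and SLC7A6 fell. A match is a description of the letters and not a bound site.

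The heavy chain gene SLC3A2, whose product carries several light chains to the surface, stood at 226, 218, 215 and 234 CPM in DMSO replicates 1 to 4. In PZH replicates 1 to 4 it stood at 1342, 1362, 1578 and 1538 CPM. The groups were far apart, and replicates 3 and 4 were the higher PZH libraries. The gene rose 6.52-fold (log2 fold change 2.70 ± 0.061 (SE), adjusted p = 1.05e-20 by edgeR's quasi-likelihood test), and 2.11% of tested genes had a larger log2 fold change.

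SLC7A5 encodes LAT1, the light chain that exchanges glutamine and other internal amino acids for leucine and other large neutral ones. DMSO libraries held 509, 517, 499.8 and 528 CPM. PZH libraries held 1233, 1348, 1237 and 1275 CPM. The rise was 2.48-fold with no overlap (log2 fold change 1.31 ± 0.050, adjusted p = 1.11e-16). Reads from SLC7A5P1, a near-identical pseudogene copy, could be confused with those of SLC7A5. That row held 5 to 25 counts per library against at least 10732 for SLC7A5. How reads that match both were counted is not stated, so the part of the copy was not tested.

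SLC7A6 encodes y+LAT2, a light chain that exchanges cationic for neutral amino acids. It was the 1 gene called lower, at 24.3, 27.3, 28.9 and 26.6 CPM in DMSO and 19.7, 16.2, 20.7 and 15.6 CPM in PZH. The groups did not overlap, but the gap between the lowest DMSO and the highest PZH library was small (log2 fold change -0.57 ± 0.090, adjusted p = 4.69e-06). In GENCODE 29, 44.4% of the exon bases of SLC7A6 overlap those of SLC7A6OS on the opposite strand. Whether reads were assigned by strand is not stated, so the level of SLC7A6 is uncertain. The mean count of SLC7A6OS was 145 in DMSO libraries and 173 in PZH libraries; its part in the result was not tested.

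SLC3A2 and the light chain genes SLC7A5 and SLC7A6 moved by different amounts, which a ratio of raw counts within each library shows without any scaling. Not all light chain genes rose less than SLC3A2. The cystine light chain gene SLC7A11 rose 11.2-fold against 6.52-fold for SLC3A2, and its ratio to SLC3A2 was not tested. There were 2.25, 2.37, 2.33 and 2.26 counts of SLC7A5 per count of SLC3A2 in DMSO replicates 1 to 4, and 0.919, 0.990, 0.784 and 0.83 in PZH replicates 1 to 4. Every DMSO library had more counts of the light chain gene than of the heavy chain gene, and every PZH library had fewer. Where such counts cross depends on gene length. In TMM-scaled CPM per kb of exon, PZH replicates 1 to 4 held 259.9, 284.1, 260.6 and 268.7 of SLC7A5. For SLC3A2 they held 259.1, 263.1, 304.8 and 297.1, so SLC7A5 was the lower only in replicates 3 and 4. The change of the count ratio between groups does not depend on length. The log2 ratio was 1.20 ± 0.036 in DMSO and -0.19 ± 0.15 in PZH (SD, n = 4), a difference of -1.39 (95% interval by inverting the exact test -1.60 to -1.18; exact two-sided permutation p = 0.0286, the smallest that 70 assignments allow; adjusted p = 0.0358 over 5 pairs). For SLC7A6 to SLC3A2 the log2 ratio was -3.06 ± 0.14 in DMSO and -6.34 ± 0.23 in PZH. That difference was -3.28 (interval -3.73 to -2.87; exact permutation p = 0.0286, adjusted p = 0.0358). Between the light chains, the log2 ratio of SLC7A5 to SLC7A6 rose from 4.26 ± 0.12 to 6.15 ± 0.25, by 1.89 (interval 1.51 to 2.26; the same exact and adjusted p). These 3 ratios share genes and are not independent of each other. In every PZH library SLC7A6 was below, and SLC3A2 and SLC7A5 were above, every DMSO library. The ratios with SLC7A6 therefore had to separate the groups, and their exact p adds nothing to the calls of the single genes.

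**Figure D3:**
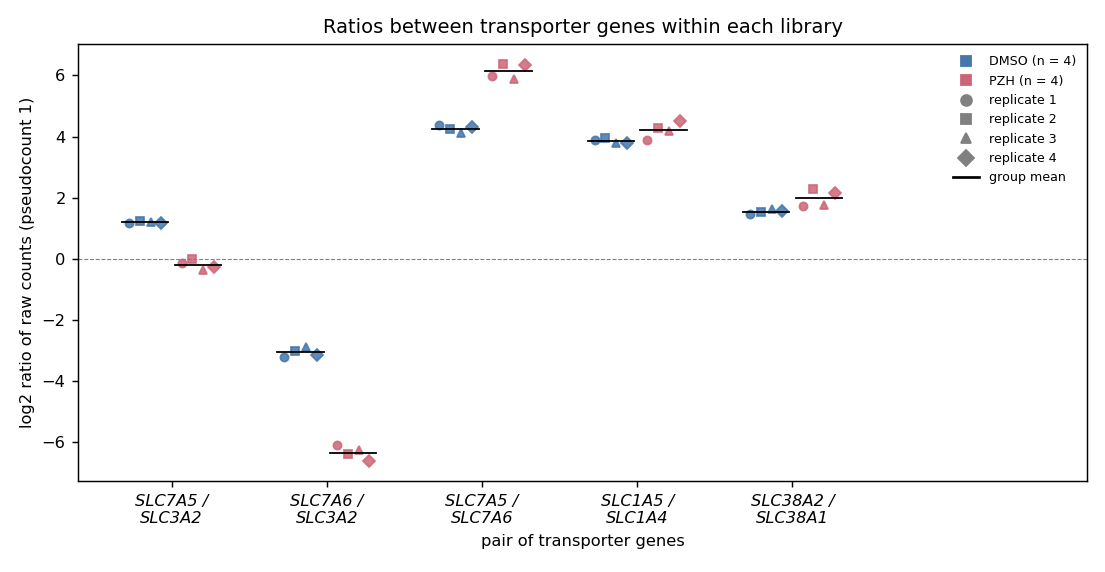
Log2 ratio of raw counts (pseudocount 1) for 5 pairs of transporter genes in each library; symbols mark the replicate number and bars the group means. SLC7A5 to SLC3A2 lies above 0 in the 4 DMSO libraries and below 0 in the 4 PZH libraries, and the groups overlap only for SLC1A5 to SLC1A4. Counts are not corrected for gene length, on which the side of 0 depends.

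SLC7A1 encodes CAT1, a uniporter for arginine, lysine and ornithine that needs no heavy chain. It stood at 150.1, 150.4, 146 and 149.8 CPM in DMSO, a span of under 5 CPM, and at 439.9, 389, 436 and 424 CPM in PZH. The gene rose 2.83-fold (log2 fold change 1.50 ± 0.049, adjusted p = 6.10e-18), with every PZH library above every DMSO library.

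Of the neutral amino acid exchangers of the SLC1 family, SLC1A5 encodes ASCT2, best known as a carrier of glutamine. It stood at 167, 173, 172 and 175 CPM in DMSO and at 339.9, 368, 371 and 356 CPM in PZH. The increase was 2.09-fold (log2 fold change 1.07 ± 0.046, adjusted p = 1.00e-15), or 1.75-fold without scaling factors. An antisense gene, AC008622.2, overlaps 23.4% of its exon bases and had a mean of 0.5 counts in DMSO and 0 in PZH. Its part in the result was not tested. SLC1A4 encodes ASCT1, which carries alanine, serine, cysteine and threonine, and was scarce, with 236 to 264 counts per DMSO library. Its levels were 11.18, 11.17, 12.3 and 12.6 CPM in DMSO and 23.04, 18.9, 20.4 and 15.7 CPM in PZH. PZH libraries were all higher but spread widely, with replicate 1 highest and replicate 4 lowest (log2 fold change 0.72 ± 0.104, a 1.65-fold rise, adjusted p = 1.33e-06). The ratio of SLC1A5 to SLC1A4 was 14.9, 15.4, 13.9 and 13.8 in DMSO and 14.7, 19.4, 18.2 and 22.6 in PZH. The groups overlapped through PZH replicate 1, and the log2 difference of 0.35 did not pass (interval -0.06 to 0.71; exact permutation p = 0.0857, also after adjustment over 5 pairs). Without PZH replicate 1 the difference was 0.47 and passed (exact permutation, adjusted p = 0.0286).

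The sodium-coupled carriers SLC38A1 (SNAT1) and SLC38A2 (SNAT2) take up glutamine, alanine and other small neutral amino acids. SLC38A2 was already abundant, at 963, 967, 983 and 1004 CPM in DMSO, and reached 1357, 1515, 1278 and 1536 CPM in PZH. It rose 1.45-fold (log2 fold change 0.54 ± 0.058, adjusted p = 1.49e-08), with replicates 2 and 4 highest. Without scaling factors that rise was 1.21-fold. SLC38A1 was at 349, 335, 319 and 340.1 CPM in DMSO and at 408, 309, 379.9 and 348 CPM in PZH. The PZH libraries lay on both sides of the DMSO range, and the gene did not pass (log2 fold change 0.10 ± 0.064, adjusted p = 0.136). With no scaling factors it passed as lower, at a log2 fold change of -0.15 (edgeR, adjusted p = 0.0495), and without PZH replicate 2 as higher, at 0.18 (adjusted p = 0.00251). There were 2.76, 2.88, 3.08 and 2.95 counts of SLC38A2 per count of SLC38A1 in DMSO and 3.32, 4.90, 3.37 and 4.42 in PZH. The log2 ratio differed by 0.44 with no overlap (interval 0.11 to 0.83; exact permutation p = 0.0286, adjusted p = 0.0358 over 5 pairs). On leaving out any 1 DMSO library the adjusted exact p of this ratio was 0.0857 to 0.107, while the difference stayed at 0.41 to 0.46.

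The remaining pair of genes were the least abundant in DMSO and among those that rose most. SLC6A9 encodes GLYT1, a sodium- and chloride-coupled glycine carrier. It had 115, 104, 108 and 152 counts in DMSO (5.25, 4.92, 5.03 and 7.27 CPM) and 737, 647, 713 and 662 counts in PZH (41.7, 38.2, 43.1 and 40.1 CPM). DMSO replicate 4 stood above the other DMSO libraries but far below the PZH libraries. The gene rose 7.26-fold (log2 fold change 2.86 ± 0.0995, adjusted p = 2.26e-17), and 1.83% of tested genes had a larger log2 fold change. CCDC24 on the opposite strand overlaps 7.83% of its exon bases and went from a mean of 188 to 120 counts; its part in the result was not tested. SLC43A1 encodes LAT3, which lets large neutral amino acids through without exchange. It had 67 to 82 counts per DMSO library (3.47, 3.50, 3.82 and 3.20 CPM) and 267 to 399 per PZH library (22.6, 19.4, 16.1 and 18.9 CPM), a 5.50-fold rise (log2 fold change 2.46 ± 0.12, adjusted p = 1.32e-14). Replicate 1 was the highest PZH library and replicate 3 the lowest.

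Levels of different genes can be set side by side only per length, here TMM-scaled CPM per kb of exon. Exon lengths are from GENCODE 29, since the labels do not name the annotation behind the counts. Each length joins all annotated exons of a gene, whichever transcripts the cells made, and the order of genes depends on that choice. In DMSO the order was SLC38A2 (148 ± 2.87), SLC7A5 (108 ± 2.52), SLC1A5 (51.5 ± 1.01), SLC3A2 (43.1 ± 1.63), SLC38A1 (33.5 ± 1.24) and SLC7A1 (19.4 ± 0.255). SLC7A6 (3.53 ± 0.249), SLC1A4 (1.70 ± 0.108), SLC6A9 (1.09 ± 0.215) and SLC43A1 (0.990 ± 0.071) were scarcer. Only the last 2 of these neighbours overlapped in their libraries. In PZH, SLC3A2 (281 ± 23.3) and SLC7A5 (268 ± 11.3) came first with overlapping libraries. SLC38A2 (215 ± 18.9), SLC1A5 (108 ± 4.27), SLC7A1 (54.9 ± 3.02), SLC38A1 (36.1 ± 4.26), SLC6A9 (7.90 ± 0.406) and SLC43A1 (5.45 ± 0.749) followed in that order. At the end, SLC1A4 (2.81 ± 0.441) and SLC7A6 (2.38 ± 0.336) overlapped.

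As a share of the summed level per kb of the 10 genes, SLC38A2 went from 36.1 ± 0.441% to 21.9 ± 1.63%, and SLC38A1 from 8.16 ± 0.289% to 3.68 ± 0.517%. SLC3A2 went from 10.5 ± 0.262% to 28.6 ± 1.94%. SLC7A5, at 26.3 ± 0.275% and 27.3 ± 1.09%, had overlapping libraries. Such shares do not depend on scaling factors, but they depend on the exon lengths used, and each share depends on all the others.

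**Figure D4:**
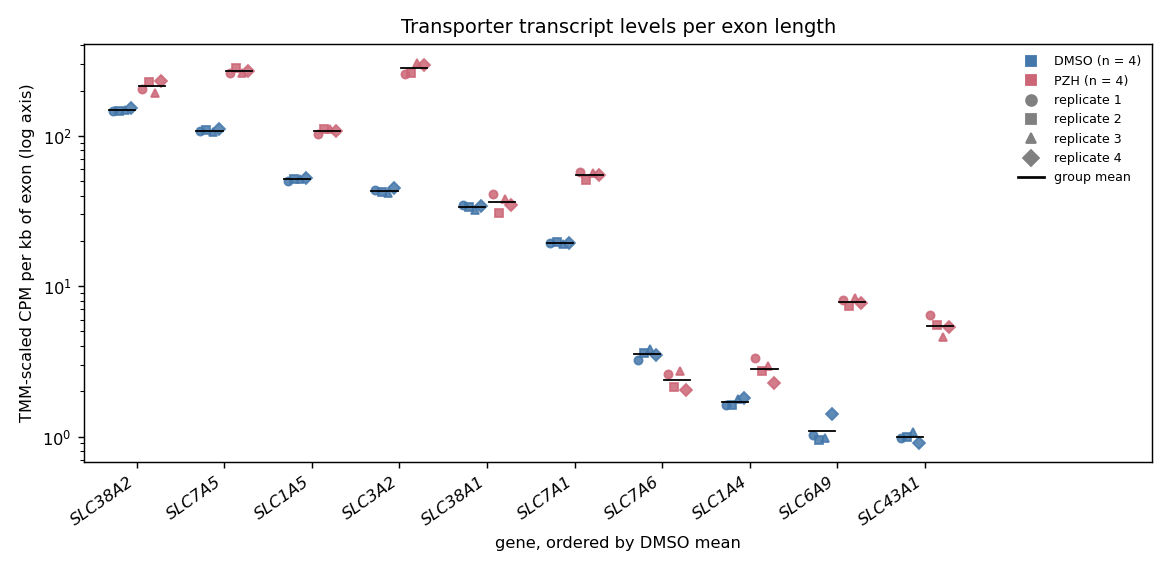
TMM-scaled CPM per kb of exon for the 10 transporter genes, ordered by their DMSO mean, on a log axis; symbols mark the replicate number and bars the group means. SLC3A2 stands at 43.1 in DMSO, below SLC38A2, SLC7A5 and SLC1A5, and at 281 in PZH, where its libraries overlap those of SLC7A5.

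Other genes of amino acid transport and use were taken from lists of known members. Of 28 other surface carriers, 23 were in the table and 11 were tested, since 12 had too few counts. Of the 11, 3 rose and 8 fell, where 39.3% and 40.9% of all tested genes did, and the median log2 fold change was -1.18. The cystine light chain SLC7A11, which pairs with SLC3A2, rose 11.2-fold from 60.3 ± 1.77 to 678 ± 88.1 CPM. SLC38A5 and SLC43A2, named after their values were seen, were the others that rose, by 1.44-fold and 1.48-fold. The cationic carrier SLC7A2 (CAT2) fell 8.03-fold from 32.6 ± 2.26 to 4.05 ± 0.929 CPM, whereas its relative SLC7A1 rose. The glutamate carriers SLC1A1 (EAAT3) and SLC1A3 (EAAT1), of the same family as SLC1A4 and SLC1A5, fell 6.52-fold and 6.19-fold.

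Of 9 lysosomal carriers, 7 were tested, of which 4 rose and 2 fell, beside 39.3% and 40.9% of all tested genes. With no scaling factors 3 were higher and 3 lower, beside 29.8% and 51.1% of all tested genes. SLC66A1, listed under its older symbol PQLC2 and a carrier of cationic amino acids, rose 2.08-fold, SLC36A4 rose 1.66-fold and SLC15A4 rose 1.45-fold. SLC38A7 fell 1.89-fold from 15.8 ± 0.322 to 8.38 ± 0.363 CPM. Of 38 tested genes of amino acid sensing by mTORC1, 15 rose and 18 fell, where 39.3% and 40.9% of all tested genes did. With no scaling factors 8 were higher and 21 lower, where 29.8% and 51.1% of all tested genes were. SESN2, a leucine sensor, rose 28.3-fold, the mTORC1 activator RHEB rose 1.85-fold, SEC13 of the GATOR2 complex rose 2.05-fold and the mTORC1 subunit MLST8 fell 2.02-fold.

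Among 13 tested genes that make or use the carried amino acids, 4 rose and 9 fell, beside 39.3% and 40.9% of all tested genes. Asparagine synthetase ASNS rose 22.3-fold from 3.24 ± 0.540 to 72.4 ± 6.85 CPM, and the mitochondrial arginase ARG2 rose 10.05-fold (log2 fold change 3.33 ± 0.10 (SE)). Glutamate dehydrogenase GLUD1, named after its values were seen, rose 1.28-fold. SHMT1, which interconverts serine and glycine in the cytosol, fell 6.47-fold, and the asparaginase ASRGL1 fell 5.10-fold. A list of 11 regulators held the eIF2alpha kinases, ATF4, genes that act with it or downstream of it, and 2 transcription factors outside that response, MYC and NFE2L2. Of the 11, 7 rose, NFE2L2 among them, and 2 fell, beside 39.3% and 40.9% of all tested genes. With no scaling factors 7 were higher and 4 lower, the added genes being MYC and EIF2AK4, beside 29.8% and 51.1% of all tested genes. TRIB3, an inhibitor of ATF4, rose 16.1-fold, and the ATF4 partners CEBPG and CEBPB rose 4.72-fold and 5.35-fold. DDIT3, which encodes CHOP, rose 88.9-fold. Of the eIF2alpha kinases in the list, all but EIF2AK4 were called, in both directions. EIF2AK4, the kinase GCN2 that senses uncharged tRNA, was also named after its values were seen. It did not pass, with 95.7 ± 3.40 CPM in DMSO against 101 ± 9.56 CPM in PZH (edgeR, adjusted p = 0.194). With no scaling factors it passed as lower, at a log2 fold change of -0.18 (adjusted p = 0.0032), and on dropping PZH replicate 1 as higher, at 0.15 (adjusted p = 0.0175). MYC went the same ways, at -0.22 (adjusted p = 0.00638) and 0.16 (adjusted p = 0.0125).

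**Figure D5:**
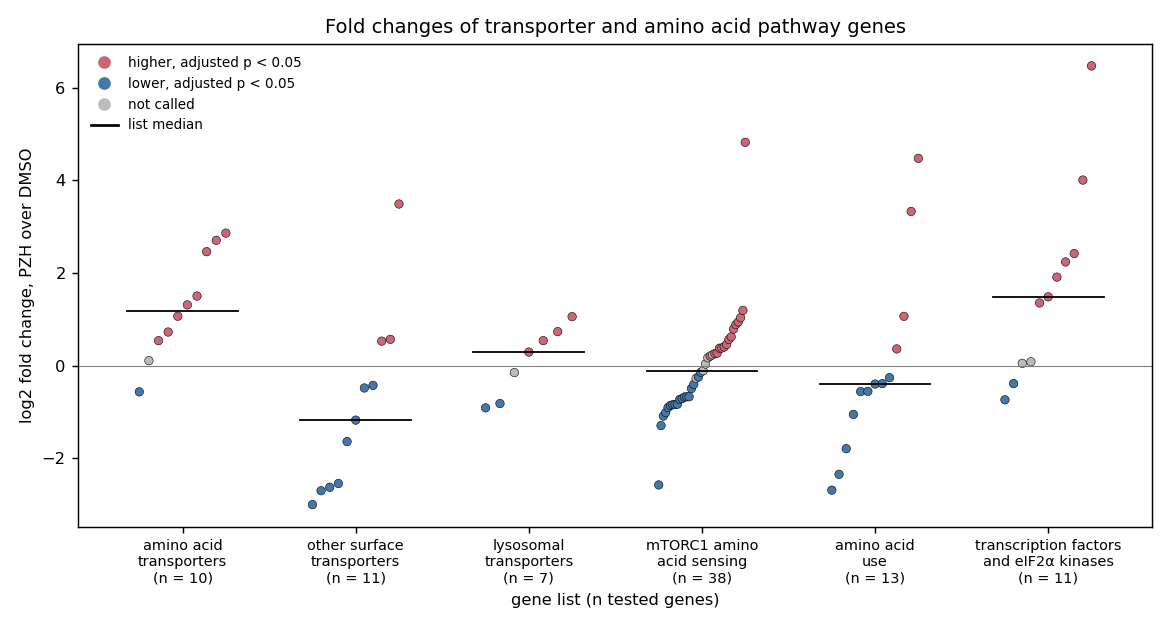
Log2 fold change, PZH over DMSO, of each tested gene of the 10 transporters and of 5 lists of amino acid pathway genes; color marks the call and bars the list median. The median lies at 1.19 for the 10 transporters and at -1.18 for the other surface carriers.

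Profiles over the 8 libraries, with each gene centred on its mean log2 CPM, were compared by Euclidean distance. The nearest to SLC7A5 were ISCU, a scaffold for iron-sulfur clusters (distance 0.0727), SH3RF1 (0.0967) and the ATP-gated channel gene P2RX4 (0.098). Nearest to SLC3A2 were the sheddase ADAM17 (0.187), the inositol phosphate kinase ITPKC (0.195) and USP53 (0.209). Their log2 fold changes were 1.30, 1.34 and 1.36 for the former and 2.62, 2.81 and 2.78 for the latter. With 2 groups such a distance mostly reflects the size of the fold change.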

How the data were processed

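Poly(A) RNA of 8 HCT116 libraries was sequenced after library preparation with the NEBNext Ultra RNA kit, per the labels' protocols. Tools listed in the submitters' processing notes, with no roles, are HISAT2 2.1.0, FastQC 0.11.5, DESeq 1.28.0 and StringTie 1.3.3b; the notes and labels name no build or annotation, nor whether strand was used. The values are raw counts, not normalized, that the authors deposited for each gene symbol in 1 table. No replicate pair matched within sampling noise (chi-square over its degrees of freedom was 2.39 to 2.81 in DMSO and 4.03 to 12.3 in PZH). A floor of 3 counts is 0.151 to 0.165 CPM, for counting error only.

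Genes were filtered with filterByExpr (minimum count 10, total 15), scaled with TMM and tested, PZH against DMSO, with edgeR 4.0.16 (quasi-likelihood F test, two-sided, group as the only term, Benjamini-Hochberg adjustment over 15006 genes, threshold 0.05) in R 4.3.3; the steps were tested on simulated data, where the share of false calls came out above the threshold's nominal share. Standard errors come from the F statistic: its square root divides the absolute log2 fold change. Ratios between genes used raw counts with a pseudocount of 1 and exact permutation over 70 assignments. Sequences are RefSeq's (GRCh38.p14). The alternatives tried were scaling by RLE or upper quartile or not at all, other filters, DESeq2 1.42.0, limma-voom (limma 3.58.1), a replicate block, a threshold of 0.01 and leaving out each library. Leaving out each library for the share of counts was chosen after seeing the data.

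The 10 genes and the lists were chosen with earlier results of these data known. Named beside the 10 are up to 4 called genes with the smallest p from each list, and the 3 genes nearest in profile to SLC7A5 and SLC3A2; 5 list genes are not analysed here, and 2 were matched by an older symbol (1 in each of 2 lists). A further gene that was called is not reported here by name.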

Additional observations from a re-analysis of the deposited data

Results flagged for a closer look

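In 32 sets of 4 values (each gene's CPM, each ratio and the share of counts, in each group), a library far from the other 3 by Dixon's criterion was found 2 times; chance gives about 1 in 20 sets. SLC7A1 in DMSO was lowest in replicate 3, at 146.2 CPM against 149.8 to 150.4 CPM in the others, a set whose whole spread is small. SLC6A9 in DMSO was highest in replicate 4, at 7.265 CPM against 4.92 to 5.25 CPM, and the log2 fold change of SLC6A9 was 2.80 to 3.001 on leaving out each library in turn.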

How the results depend on the processing

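The count of 8 transporters higher ranged from 8 to 9 on leaving out each library and that of 1 lower stayed at 1, the ninth being SLC38A1 on dropping PZH replicate 2, with a log2 fold change of 0.18 (edgeR, adjusted p = 0.00251); without scaling factors 2 were lower, the added gene being SLC38A1 (log2 fold change -0.15, against 0.10 with TMM). Without scaling factors 8 genes of mTORC1 sensing were higher and 4 of the 11 regulators were lower; 9 of the 11 were higher on dropping PZH replicate 1, with MYC and EIF2AK4 added. With no filter, and with DESeq2, 5 other surface carriers were higher, the added ones being SLC3A1 and SLC6A15, at 0 to 11 counts per library. Over all genes, leaving out 1 library gave 5835 to 5991 higher and 6026 to 6217 lower.

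Same-numbered libraries did not deviate together (correlations of deviations from the group means 0.001, 0.011, 0.002 and 0.008). Whether they share more than a number is not stated in the labels, and such correlations cannot settle it. The replicate block changed no call among the 10 genes in edgeR. For the ratios, an exact paired sign-flip test cannot go below 0.125; differences were -1.39, -3.28, 1.89 and 0.44 for SLC7A5 to SLC3A2, SLC7A6 to SLC3A2, SLC7A5 to SLC7A6 and SLC38A2 to SLC38A1, each with adjusted p = 0.156. On leaving out each library, SLC38A2 to SLC38A1 ran from 0.33 to 0.52, SLC1A5 to SLC1A4 from 0.26 to 0.47, SLC7A5 to SLC3A2 from -1.45 to -1.34, SLC7A6 to SLC3A2 from -3.36 to -3.18 and SLC7A5 to SLC7A6 from 1.81 to 1.97. Depth limits SLC43A1 and SLC6A9 most, at 67 to 152 counts per DMSO library. Besides these, SLC38A2 to SLC38A1 lost its call without any 1 DMSO library (adjusted exact p = 0.0857 to 0.107) and SLC1A5 to SLC1A4 gained one without PZH replicate 1 (0.47, adjusted exact p = 0.0286). For the 10 genes, the genes named by smallest p and the ratios, the remaining values kept their direction and their side of the threshold. The remaining counts stayed within 1.5 times. Other genes of the mTORC1 sensing list did change call. SEH1L lost its call with DESeq2 (adjusted p = 0.0502), and in edgeR without PZH replicate 1 (adjusted p = 0.0867) or PZH replicate 3 (adjusted p = 0.0585). KPTN gained one without DMSO replicate 2 (edgeR, adjusted p = 0.0353) and without PZH replicate 1 (edgeR, adjusted p = 0.0362). Without scaling factors more of that list changed, among them RRAGA, which lost its call, and TSC1, then called lower.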

Other observations

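PZH libraries differed from each other in which transporter they held most of. Replicate 1 was the highest PZH library for SLC7A1, SLC1A4, SLC38A1 and SLC43A1 and the lowest for SLC3A2, SLC7A5 and SLC1A5. Replicate 3 was the highest for SLC3A2, SLC7A6, SLC1A5 and SLC6A9. The coefficient of variation of the 10 genes was larger in PZH than in DMSO except for SLC6A9 (5.14% and 19.7%), and ran in PZH from 3.96% for SLC1A5 to 15.7% for SLC1A4. Over all tested genes the median was 9.67% in PZH and 6.16% in DMSO. For tested genes at a mean log2 CPM of 4 or more, as most of the 10 were, it was 6.60% in PZH and 3.90% in DMSO.

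Other letters were searched in the same promoter windows. The E-box CACGTG was in windows of 3 of the 10 genes and of 8.78% of all genes in the table, and the antioxidant response element, searched as TGACNNNGC on both strands, in windows of 5 of the 10 genes and of 16.1% of all genes. The E-box in SLC7A5 lies 130 bases before a start (chr16:87869620-87869649, minus strand), and the antioxidant element in SLC3A2 lies 37 bases before one (chr11:62881652-62881681, plus strand), in the same window as its C/EBP-ATF match.
SLC7A5: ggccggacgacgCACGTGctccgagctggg
SLC3A2: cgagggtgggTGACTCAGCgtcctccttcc
Matched letters are in capitals, and each stretch is 30 bases along the strand of the gene.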
